A study of Mus musculus with 4 samples.

Results

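The genes of the BAFF receptors, the TRAF adaptors around them, the cellular inhibitors of apoptosis and the kinase NIK were followed in splenic B cells of mice with and without a B lineage deletion in Nsd1, the gene of a histone methyltransferase. The members were chosen by symbol and are Tnfrsf13c (BAFF receptor), Tnfrsf13b (TACI), Tnfrsf17 (BCMA), Traf2, Traf3, Traf5, Traf6, Birc2 (cIAP1), Birc3 (cIAP2) and Map3k14 (NIK). These 10 genes are 10 of the 55401 genes listed for each library, and 9 of them had enough counts to be tested among 11657 tested genes. RNA was sequenced from B220+ cells sorted at high purity from the spleen of C57BL/6J mice, with 2 libraries labelled NSD1 B WT and 2 labelled NSD1 B KO. NSD1 B KO mice carried Mb1-Cre and 2 floxed Nsd1 alleles, with exons 6 to 8 between the loxP sites. NSD1 B WT mice were littermates that carried the Mb1-Cre allele without the floxed alleles, so both genotypes share Cre, which is driven by the Cd79a locus from the earliest B lineage stages. The study describes its mice as 7 to 9 weeks old and of both sexes, but no source gives the age or sex behind a library, or says whether the libraries of a genotype came from separate or pooled mice. The p-values therefore measure only the spread between these libraries, which may be technical.

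BAFF is a TNF family cytokine that mature B cells need to survive. In the textbook scheme, TRAF3 bridges NIK to TRAF2 and the cIAPs, and the cIAPs mark NIK for degradation. When BAFF engages its receptor, TRAF3 is itself degraded, NIK accumulates, and NIK acts through IKKα on the NF-κB2 precursor, whose product pairs with RelB. TACI and BCMA also bind BAFF and its relative APRIL, with TACI prominent in marginal zone and B1 cells and BCMA in plasma cells, while TRAF6 links CD40, Toll-like receptors and the IL-1 receptor to the canonical NF-κB pathway.

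The counts on genes ran from 6769118 to 7566834 per library. Nsd1 itself gave 497 and 480 counts for NSD1 B WT against 284 and 280 for NSD1 B KO, or 67.6 ± 2.75 against 40.5 ± 1.52 CPM (counts scaled by TMM to a common library size, mean ± SD, n = 2), a log2 fold change of -0.74 (SE 0.11, adjusted p = 8.08e-08, edgeR's quasi-likelihood test). The counts are per gene, so exons 6 to 8 were not measured apart. None of 9 B cell markers, Ptprc (B220) among them, was at 0 in any library. Their summed level was 12760 to 12982 CPM in NSD1 B WT and 11285 to 12290 in NSD1 B KO. Of the 9, 1 was higher (Ebf1), 6 were lower and 2 were not called. Cd79b, not called, gave the largest part of the sum, at 6825 against 8159 CPM, while Pax5 was 9.76-fold and Cd79a 2.52-fold lower. Marker sums of other cells also moved with genotype. Those of 6 erythroid genes were 35.6 to 39.6 CPM in NSD1 B WT and 1690 to 1944 in NSD1 B KO, with 5 of 6 genes higher, and those of 8 myeloid genes were 4570 to 4673 and 5734 to 6082 CPM, with 5 higher, 2 lower and Mpo at 0. The sums of 7 T cell genes were 39.9 to 49.5 and 52.9 to 56.4 CPM, with 2 genes higher, 2 lower (Lat and Thy1) and Cd4 and Cd8a at 0, and those of 6 dendritic cell genes at most 5 CPM, with 4 of 6 at 0 in every library. Xist gave 47 and 62 counts for NSD1 B WT against 1 and 2 for NSD1 B KO, while all 4 Y-linked genes examined were counted in every library. The part of these differences in the values below was not tested, and in a bulk library fewer cells of a type and less RNA per cell cannot be told apart.

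Both detected BAFF receptors were lower in NSD1 B KO, the TRAF genes split in both directions, the cIAP genes moved apart, and NIK was not counted at all in NSD1 B KO. Of the 9 tested members, 4 (Traf2, Traf3, Traf5 and Birc3) were called higher in NSD1 B KO and 5 (Tnfrsf13c, Tnfrsf13b, Traf6, Birc2 and Map3k14) lower, at an adjusted p under 0.05 and a fold change above 1.2 by edgeR's quasi-likelihood test. Calls were frequent in these libraries, with 78.2% of all tested genes called, 37.1% higher and 41.1% lower, and the count of 9 in 9 is to be read against those shares. The libraries of the genotypes did not overlap for any of the 9, which held for 88.1% of tested genes. Traf6 and Map3k14 were at 0 in both NSD1 B KO libraries, as were 11.3% of tested genes, and Traf5 was at 0 in both NSD1 B WT libraries, as were 7.63%. These 3 genes and Traf2 passed the filter on low counts through 1 genotype alone, so they could only be tested because they differed.

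**Figure D1:**
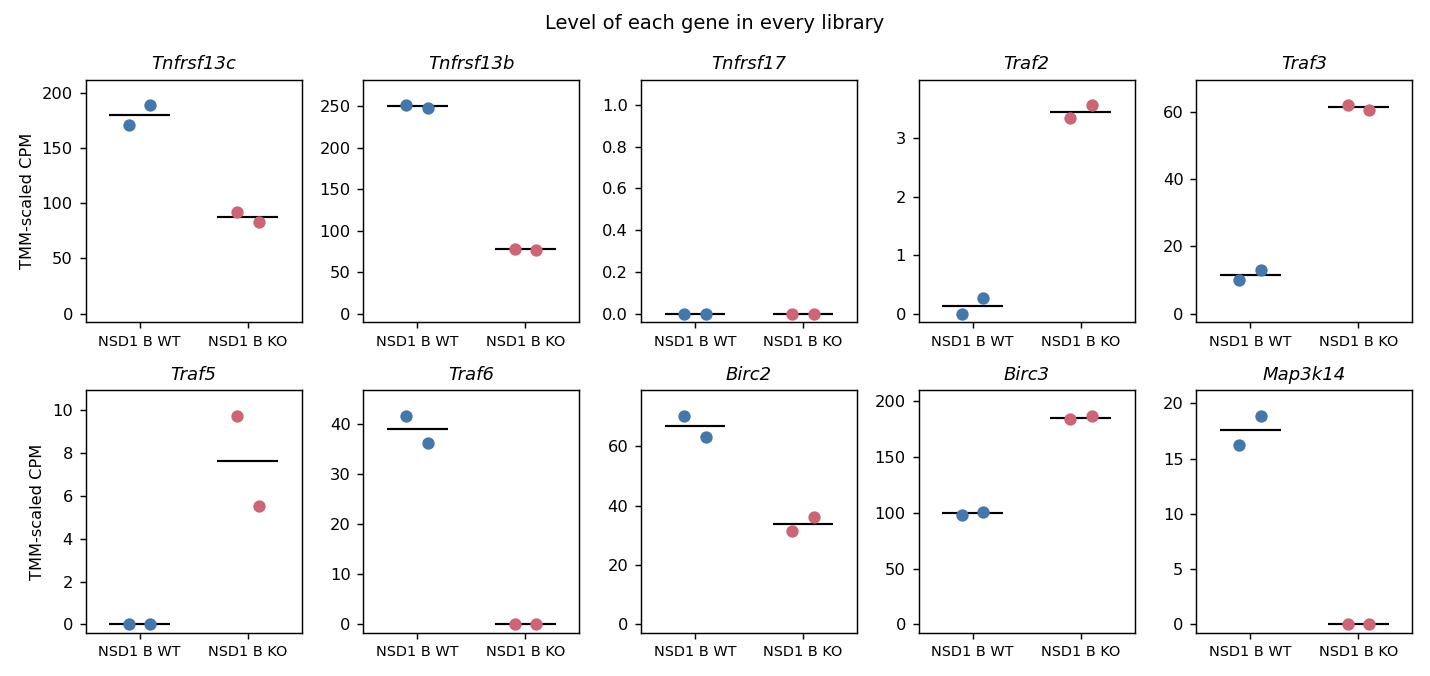
TMM-scaled level of each of the 10 genes in CPM in the 4 libraries, on a linear axis from 0 for each gene, with 1 point per library and a bar at the mean of the 2 libraries of a genotype. The points of the genotypes are apart for 9 genes, and Tnfrsf17 is at 0 in all 4 libraries.

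The BAFF receptor gene Tnfrsf13c (ENSMUSG00000068105.11, chr15:82221743-82224369 in mm10, minus strand) gave 1223 and 1384 counts for NSD1 B WT against 665 and 560 for NSD1 B KO. Both NSD1 B KO libraries lay well under both NSD1 B WT libraries. Its level was 180 ± 12.8 CPM against 87.8 ± 6.49 (SD, n = 2), 2.05-fold lower, with a log2 fold change of -1.04 (SE 0.09, adjusted p = 2.34e-14). A change at least this large was seen in 53.2% of tested genes. The product is the receptor through which BAFF sustains mature B cells.

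Tnfrsf13b (ENSMUSG00000010142.12, chr11:61126755-61149372, plus strand) encodes TACI, which binds both BAFF and APRIL. It gave 1798 and 1813 counts for NSD1 B WT against 562 and 520 for NSD1 B KO. The libraries of a genotype were close to each other, at 252 and 248 CPM in NSD1 B WT and 78.1 and 77.3 in NSD1 B KO. TACI RNA was 3.21-fold lower in NSD1 B KO, with a log2 fold change of -1.68 (SE 0.09, adjusted p = 2.19e-22), and 39.8% of tested genes changed by at least as much. Relative to Tnfrsf13c and per kb of exon, Tnfrsf13b stood at 1.06 and 0.946 in NSD1 B WT and at 0.61 and 0.671 in NSD1 B KO, so the balance of these receptors moved towards the BAFF receptor, a difference that was described and not tested.

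TACI is prominent in marginal zone and B1 cells. The B1 markers did not move one way. Over 6 B1 cell genes the summed level was 761 and 764 CPM in NSD1 B WT and 551 and 520 in NSD1 B KO, with 3 genes higher and 3 lower and a median log2 fold change of 0.14. That sum was carried by Bhlhe41, at 441 against 235 CPM, and Plscr1, at 276 against 216 CPM, while Cd5, a defining B1a marker, was absent from NSD1 B WT and counted 120 and 103 times among the NSD1 B KO reads, at least 77.1-fold higher. Over 6 marginal zone genes the summed level was 484 and 496 CPM against 277 and 255, with 1 higher, 3 lower and S1pr3 at 0. The 5 follicular genes ran the other way, with 1613 and 1594 CPM against 2354 and 2241, 3 of them higher and 1, Fcer2a, at 0 in NSD1 B KO. Whether these shifts have a part in the receptor levels was not tested.

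Tnfrsf17 (ENSMUSG00000022496.5, chr16:11313812-11320074, plus strand), the gene of BCMA, had 0 counts in all 4 libraries. At this depth 3 counts, the limit that a count of 0 allows, correspond to 0.41 to 0.446 CPM per library. Intervals and limits of this kind cover counting error only. BCMA marks plasma cells. Of 6 plasma cell genes Sdc1 was at 0 in every library, 2 were higher (Prdm1 and Irf4), 2 were lower (Xbp1 and Jchain) and 1 was not called. The list summed to 315 and 301 CPM in NSD1 B WT and 259 and 268 in NSD1 B KO.

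The TRAF genes changed in both directions, and for 3 of the 4 one genotype had almost no counts or none. The promoters of Traf3, Traf5, Traf6 and of the kinase gene Map3k14 are shown because Traf5, Traf6 and Map3k14 were at 0 in a genotype and Traf3 changed most among the members counted in every library. The sequences are from RefSeq on GRCm38.p6 and run 5′ to 3′ on the strand of the gene up to the base before its start, with capitals for a match to the κB consensus, which was searched by name on both strands. The lines give chr12:111166120-111166369 (plus strand) for Traf3, chr1:192092600-192092849 (minus strand) for Traf5, chr2:101678170-101678419 (plus strand) for Traf6 and chr11:103267473-103267651 (minus strand) for Map3k14.
Traf3: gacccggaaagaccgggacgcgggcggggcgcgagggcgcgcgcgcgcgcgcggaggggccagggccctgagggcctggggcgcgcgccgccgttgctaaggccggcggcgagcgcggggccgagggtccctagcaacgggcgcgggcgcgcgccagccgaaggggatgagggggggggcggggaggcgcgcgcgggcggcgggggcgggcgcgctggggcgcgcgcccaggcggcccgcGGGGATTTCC
Traf5: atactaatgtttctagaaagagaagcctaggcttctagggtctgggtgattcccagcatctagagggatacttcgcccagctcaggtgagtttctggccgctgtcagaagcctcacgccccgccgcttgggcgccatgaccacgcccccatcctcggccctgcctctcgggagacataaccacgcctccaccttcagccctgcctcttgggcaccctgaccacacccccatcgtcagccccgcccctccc
Traf6: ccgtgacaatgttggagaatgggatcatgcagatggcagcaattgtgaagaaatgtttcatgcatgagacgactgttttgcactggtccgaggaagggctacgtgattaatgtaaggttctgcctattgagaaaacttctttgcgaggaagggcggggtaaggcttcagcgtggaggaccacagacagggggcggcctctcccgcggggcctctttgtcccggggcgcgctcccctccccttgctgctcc
Map3k14: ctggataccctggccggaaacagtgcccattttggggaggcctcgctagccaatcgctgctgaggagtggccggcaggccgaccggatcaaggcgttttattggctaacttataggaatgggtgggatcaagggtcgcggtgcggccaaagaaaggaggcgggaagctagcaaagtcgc
The Traf3 window held 49 CG dinucleotides and 1 κB match, which began 10 bases before the start. The windows of Traf5, Traf6 and Map3k14 held 12, 13 and 19 CG dinucleotides in 250 bases and 0 κB matches. For Map3k14 only 179 of the 250 bases are printed, since the rest lies inside its GENCODE gene. All 10 members matched a RefSeq promoter, and Traf3 was the only one of them with a κB match, against 7.25% of all 32851 windows of this length, whose median CG count was 6.

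Traf3 (ENSMUSG00000021277.16, chr12:111166370-111267153, plus strand) encodes the adaptor that holds NIK to its degradation complex. It gave 71 and 95 counts for NSD1 B WT against 447 and 408 for NSD1 B KO, or 9.94 and 13 CPM against 62.1 and 60.6. Traf3 was 5.34-fold higher in NSD1 B KO, with a log2 fold change of 2.42 (SE 0.15, adjusted p = 1.85e-19). A change at least this large was seen in 31.9% of tested genes. The gene 4930595D18Rik lies inside Traf3 on the other strand, shares no exon bases with it, and gave 0 and 0 counts for NSD1 B WT against 34 and 30 for NSD1 B KO.

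Traf2 (ENSMUSG00000026942.13, chr2:25517982-25546940, minus strand), whose product recruits the cIAPs to TRAF3, was close to the limit of detection in NSD1 B WT. It had 0 and 2 counts there and 24 counts in each NSD1 B KO library, or 3.45 ± 0.164 CPM (SD, n = 2) in the latter. The ratio of the summed counts, 48 to 2 and scaled for library size, was 24.9 with an exact 95% counting interval of 6.53 to 212. The adjusted p was 9.05e-08 by edgeR's quasi-likelihood test. The fitted log2 fold change of 4.47 was 3.60 without NSD1 B WT replicate 1 and 7.62 without NSD1 B WT replicate 2, which held both counts, so the direction held and the size did not.

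Traf5 (ENSMUSG00000026637.13, chr1:191997205-192092559, minus strand) encodes an adaptor close to TRAF2 that takes part in CD40 and CD27 signalling. It was absent from both NSD1 B WT libraries and counted 70 and 37 times in those of NSD1 B KO, or 9.73 and 5.5 CPM. Against 3 counts over the NSD1 B WT libraries its excess was at least 36.7-fold (adjusted p = 3.35e-12, edgeR's quasi-likelihood test). The NSD1 B KO libraries differed from each other more for Traf5 than for Traf2 or Traf3. Of its 4566 exon bases 205 are shared with the antisense gene Gm26879, which gave 0 and 0 counts for NSD1 B WT against 2 and 1 for NSD1 B KO, and as the strand setting of the counting is not given in the sources used here, reads there cannot be told apart.

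Traf6 (ENSMUSG00000027164.8, chr2:101678429-101701669, plus strand) went the other way from Traf2, Traf3 and Traf5. The adaptor and ubiquitin ligase it encodes serves CD40 and the Toll-like receptors. It gave 298 and 265 counts for NSD1 B WT, or 41.7 and 36.3 CPM, and 0 counts in both NSD1 B KO libraries. Its level there was at least 181-fold lower (adjusted p = 7.34e-24, edgeR's quasi-likelihood test), and no 50-base stretch of its exons occurs in another gene.

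The cIAP genes lie side by side on chromosome 9 and moved in opposite directions. Birc2 (ENSMUSG00000057367.12, chr9:7818227-7837064, minus strand), the gene of cIAP1, gave 503 and 461 counts for NSD1 B WT against 227 and 244 for NSD1 B KO. This was 66.7 ± 5.18 CPM against 33.9 ± 3.34, 1.97-fold lower, with a log2 fold change of -0.98 (SE 0.12, adjusted p = 3.28e-10). Birc3 (ENSMUSG00000032000.17, chr9:7848699-7873186, minus strand), the gene of cIAP2, gave 699 and 740 counts for NSD1 B WT against 1322 and 1256 for NSD1 B KO. This was 99.5 ± 2.41 CPM against 185 ± 2.11, 1.86-fold higher, with a log2 fold change of 0.90 (SE 0.09, adjusted p = 5.89e-13). Both changes are of ordinary size in these libraries, since 55% of tested genes changed by as much as Birc2 and 57.2% by as much as Birc3.

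Within a library, Birc3 over Birc2 per kb of exon was 1.27 and 1.47 in NSD1 B WT and 5.33 and 4.71 in NSD1 B KO. The excess of cIAP2 RNA over cIAP1 RNA was thus smaller in both NSD1 B WT libraries than in both NSD1 B KO libraries. Its size depends on the exon length used. With the longest transcript, Birc3 stood at 34.2 against 20 CPM per kb for Birc2 in NSD1 B WT, and at 63.7 against 10.2 in NSD1 B KO. The genes share little sequence, with 1.42% of the 50-base stretches of Birc2 found in Birc3, while 9.06% of those of Birc3 occur in some other gene, foremost Gm7019 with 4.19%.

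**Figure D2:**
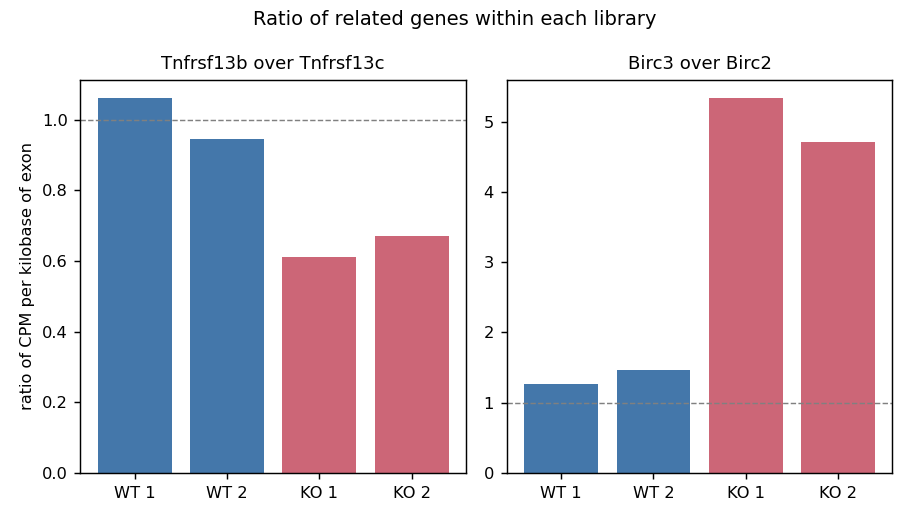
Ratio of Tnfrsf13b to Tnfrsf13c (left) and of Birc3 to Birc2 (right), in CPM per kb of exon, as 1 bar per library from 0 on a linear axis, with a dashed line at a ratio of 1. The receptor ratio is 1.06 and 0.946 in the NSD1 B WT libraries (blue) and 0.61 and 0.671 in those of NSD1 B KO (red), and the cIAP ratio 1.27 and 1.47 against 5.33 and 4.71.

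Map3k14 (ENSMUSG00000020941.7, chr11:103219762-103267472, minus strand) encodes NIK, the kinase that this complex restrains and that starts the non-canonical NF-κB pathway. It gave 116 and 138 counts for NSD1 B WT, or 16.2 and 18.9 CPM, and 0 counts in both NSD1 B KO libraries. NIK RNA there was at least 81.5-fold lower (adjusted p = 1.13e-17, edgeR's quasi-likelihood test). Of its 6550 exon bases 135 are shared with 1700028N14Rik on the same strand, which gave 0 and 0 counts for NSD1 B WT against 5 and 7 for NSD1 B KO. NIK is regulated mainly through its protein, which was not measured here.

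**Figure D3:**
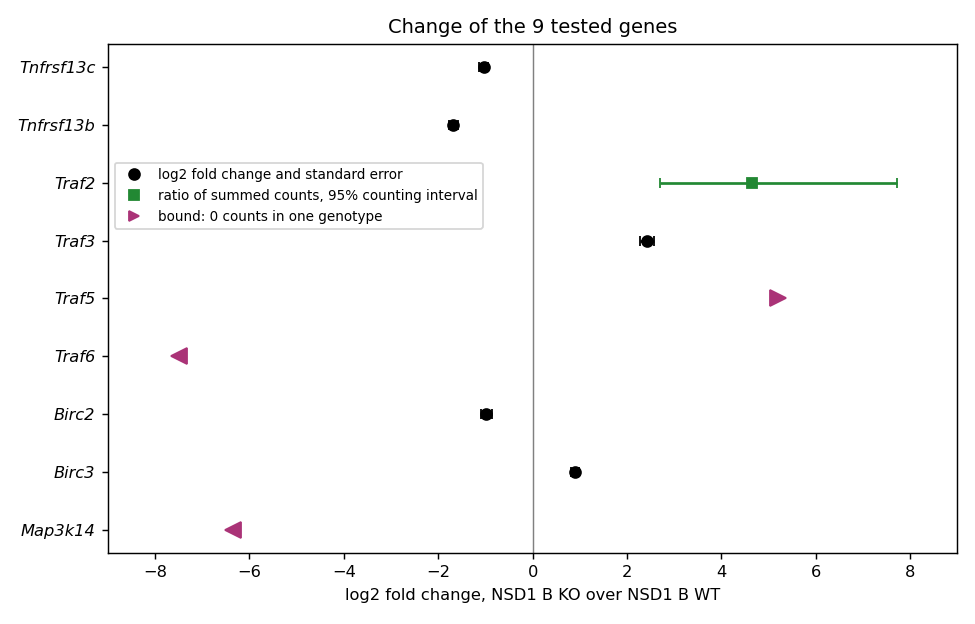
Log2 fold change of the 9 tested genes, NSD1 B KO over NSD1 B WT, with the standard error for genes counted in both genotypes, the ratio of summed counts with its 95% counting interval for Traf2, and a triangle at the bound for genes at 0 in 1 genotype. Traf2, Traf3, Traf5 and Birc3 lie right of 0, and Tnfrsf13c, Tnfrsf13b, Traf6, Birc2 and Map3k14 lie left of it.

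Levels were compared between genes as CPM per kb of exon. In NSD1 B WT the receptors came first, with Tnfrsf13b at 88.1 ± 0.9 and Tnfrsf13c at 88 ± 6.27 (SD, n = 2), and their libraries overlapped. Birc3 at 19.9 ± 0.481 and Birc2 at 14.6 ± 1.13 followed, then Traf6 at 4.94 ± 0.489, Map3k14 at 2.68 ± 0.285 and Traf3 at 1.56 ± 0.294, each clear of its neighbours. Traf2 averaged 0.0268 from its 2 counts, and Traf5 and Tnfrsf17 were at 0. The order among the intracellular genes was thus the cIAPs, TRAF6, NIK and TRAF3.

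In NSD1 B KO, Tnfrsf13c was first at 42.9 ± 3.17 CPM per kb, Birc3 second at 37 ± 0.421 and Tnfrsf13b at 27.4 ± 0.201. Traf3 at 8.35 ± 0.142 now stood above Birc2 at 7.4 ± 0.729, with Traf5 at 1.67 ± 0.655 and Traf2 at 0.677 ± 0.0322 after them and Traf6, Map3k14 and Tnfrsf17 at 0. No neighbours among the genes above 0 overlapped. This order depends on the exon length used, since with the longest transcript of each gene Birc3 came before Tnfrsf13c, at 63.7 against 44.3 CPM per kb, and Birc2 before Traf3, at 10.2 against 8.69.

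**Figure D4:**
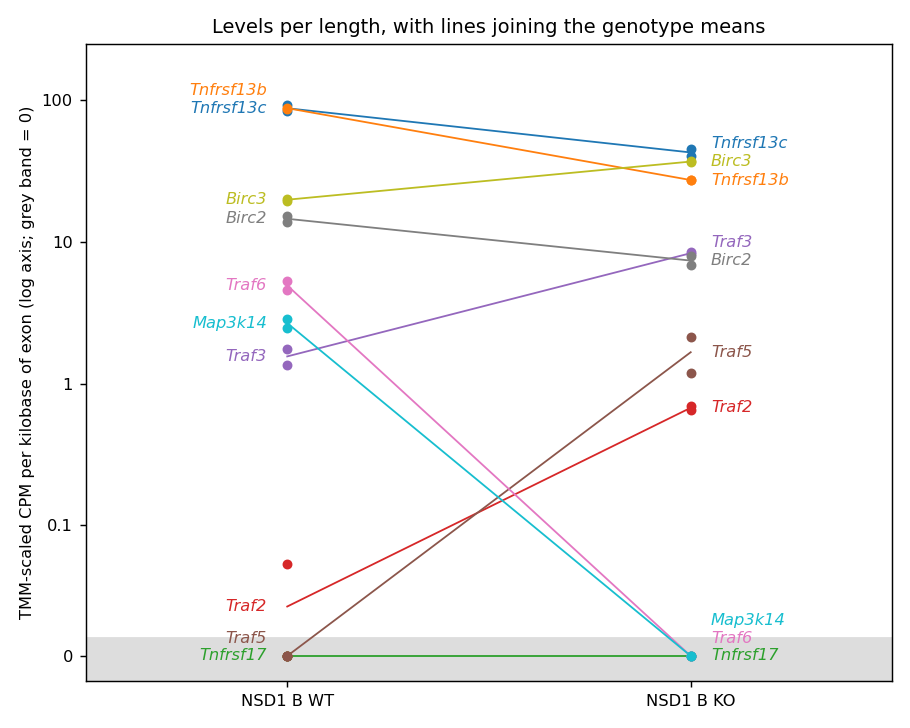
Level of each gene in TMM-scaled CPM per kb of exon on a log axis, with 1 point per library, lines that join the genotype means and a grey band for 0 counts. The receptor genes and Birc3 hold the first 3 places in both genotypes, and Traf3 passes from 1.56 to 8.35 CPM per kb.

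Traf3 had the largest change among the members counted in every library. Of 7382 tested protein-coding genes with counts in every library, those with the levels most like it over the 4 libraries were Nop14, at a distance of 0.144 on the log2 CPM scale, Rdh11 at 0.196 and Clcn3 at 0.25. Nop14, a factor of ribosome assembly, gave 66 and 89 counts for NSD1 B WT against 453 and 414 for NSD1 B KO. Rdh11, a retinol dehydrogenase, had 77 and 86 against 433 and 396, and Clcn3, an endosomal chloride transporter, 79 and 107 against 464 and 386. With 4 libraries in 2 groups, such likeness says only that these genes had the level and the change of Traf3.

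The other genes of the pathway were counted by role. Of those named, Tnfsf13b, Cd27, Tradd, Tifa, Relb, Tnfaip3, Bcl2l11 and Fcer2a were under 10 counts in both libraries of a genotype. Like Traf2, they passed the filter through the other genotype alone, so they could only be tested because they differed. Of 8 TNF family ligands 4 were tested, and 1 was higher and 3 were lower. BAFF itself, Tnfsf13b, was absent from both NSD1 B WT libraries and counted 18 times in each NSD1 B KO library, at least 12.5-fold higher (adjusted p = 2.42e-08, edgeR's quasi-likelihood test), and APRIL, Tnfsf13, had 0 and 0 against 1 and 7 counts, too few to test. BAFF is made mainly by myeloid and stromal cells. The cells sequenced here were sorted as B220+ at a stated purity above 98%. The myeloid sums given above were almost all Lyz2, at 4492 CPM in NSD1 B WT against 5717 CPM, while Itgam was 1.74-fold lower and S100a8 fell to 0, and of 5 stromal and endothelial genes only Pecam1 was counted. The part of such cells in the BAFF counts was not tested. Ltb, the gene of lymphotoxin β, fell from 3308 and 2920 counts to 2246 and 2004 (log2 fold change -0.50, SE 0.08, adjusted p = 3.17e-07).

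Of 12 other receptors that bind TRAFs, 4 were tested, with 2 higher and 2 lower. Cd40, the receptor for T cell help, rose from 251 and 265 counts to 352 and 330 (log2 fold change 0.46, SE 0.12, adjusted p = 0.000848). Cd27, a marker of memory and activated lymphocytes, rose from 6 and 8 counts to 158 and 124 (log2 fold change 4.36, SE 0.33). Tnfrsf18 (GITR) fell from 1102 and 995 counts to 527 and 476 (log2 fold change -1.01, SE 0.09), and Tnfrsf8 (CD30) from 135 and 130 to 83 and 84 (log2 fold change -0.61, SE 0.20). The lower count was 1 without NSD1 B WT replicate 1 or with a trend in exon length and GC content removed.

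Of 11 other TRAFs and proteins that bind them 9 were tested, of which 1 was higher, 6 were lower and 2 were not called. Traf1, which pairs with TRAF2, rose from 88 and 112 counts to 257 and 184 (log2 fold change 1.19, SE 0.18, adjusted p = 3.95e-08). Tradd, the adaptor of the TNF receptor, gave 116 and 105 counts for NSD1 B WT and 0 in both NSD1 B KO libraries, at least 71-fold lower. Tifa, which binds TRAF6, had 170 and 157 counts against 0 and 1, a ratio of summed counts of 315 with an exact 95% counting interval of 56.1 to 12477. The higher count was 2 without NSD1 B WT replicate 1 and 3 without NSD1 B WT replicate 2 or without NSD1 B KO replicate 2.

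Of 10 other inhibitors of apoptosis and their antagonists 9 were tested, with 4 higher and 5 lower. Xiap, the direct caspase inhibitor, rose from 530 and 601 counts to 1104 and 1022 (log2 fold change 0.96, SE 0.09), and Htra2, a mitochondrial antagonist, from 126 and 109 to 185 and 171 (log2 fold change 0.65). Birc6 fell from 382 and 411 counts to 78 and 95 (log2 fold change -2.14, SE 0.15), and Birc5 (survivin), a gene of dividing cells, from 191 and 186 to 88 and 71 (log2 fold change -1.19). Xiap thus moved with Birc3 in direction, and Birc6 and Birc5 with Birc2.

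The genes downstream of NIK moved apart from each other. Chuk, the gene of IKKα, rose from 236 and 215 counts to 964 and 854 (31.2 ± 2.56 against 130 ± 4.97 CPM, log2 fold change 2.06, SE 0.11, adjusted p = 1.51e-22). Relb rose from 6 and 5 counts to 112 and 100 (0.762 ± 0.11 against 15.2 ± 0.495 CPM, log2 fold change 4.29, SE 0.37, adjusted p = 1.43e-14). Nfkb2, the gene of the precursor that IKKα acts on and RelB pairs with, fell from 87 and 69 counts to 18 and 23 (10.8 ± 1.93 against 2.96 ± 0.649 CPM, log2 fold change -1.87, SE 0.32, adjusted p = 6.54e-07). NIK and Nfkb2 RNA were thus lower in NSD1 B KO while RelB and IKKα RNA were higher.

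Of 22 genes of the canonical NF-κB pathway, which TRAF6 feeds, all were tested, with 9 higher, 10 lower and 3 not called. Rela rose from 53 and 41 counts to 224 and 157 (log2 fold change 2.07, SE 0.21), and the inhibitor gene Nfkbib from 44 and 38 to 239 and 230 (log2 fold change 2.57, SE 0.20). Nfkbia, the inhibitor and early target of the pathway, fell from 1657 and 1672 counts to 689 and 678 (log2 fold change -1.23, SE 0.09), and the kinase gene Ripk1 from 124 and 141 to 40 and 34 (log2 fold change -1.78, SE 0.24). The median log2 fold change of the 22 was -0.05, beside -0.10 for all tested genes. This median was 0.19 without NSD1 B WT replicate 1 and 0.18 without NSD1 B WT replicate 2. It was -0.16 without NSD1 B KO replicate 1 and 0.06 without NSD1 B KO replicate 2.

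Of 10 deubiquitinases and other brakes on these pathways 3 were higher, 6 were lower and 1 was not called. Peli1, a ubiquitin ligase, rose from 82 and 106 counts to 576 and 524 (log2 fold change 2.60, SE 0.14), and the kinase gene Tbk1 from 244 and 220 to 705 and 666 (log2 fold change 1.62, SE 0.11). Otub1 fell from 922 and 952 counts to 250 and 186 (log2 fold change -2.05, SE 0.11), and Tnip1, the partner of A20, from 174 and 206 to 20 and 19 (log2 fold change -3.22, SE 0.25).

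Of 11 survival genes and surface genes that depend on BAFF 10 were tested, with 5 higher, 3 lower and 2 not called. The lower count was 2 without either NSD1 B WT library or NSD1 B KO replicate 1, by DESeq2, by limma-voom, with a trend in exon length and GC content removed or with a filter of 1 CPM in all 4 libraries. Bcl2l11, the gene of the death-promoting protein BIM, rose from 6 and 7 counts to 140 and 136 (log2 fold change 4.44, SE 0.34), and the survival kinase gene Pim1 from 64 and 69 to 162 and 133 (2.3-fold, adjusted p = 9.07e-07). The surface genes were lower, with Cr2 (CD21) at 304 and 277 counts in NSD1 B WT and 17 and 26 in NSD1 B KO (log2 fold change -3.69, SE 0.22, adjusted p = 3.4e-20), and Fcer2a (CD23) at 134 and 172 against 0 in both, at least 98.1-fold lower. CD21 and CD23 are surface proteins whose expression BAFF receptor signalling is known to sustain.

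**Figure D5:**
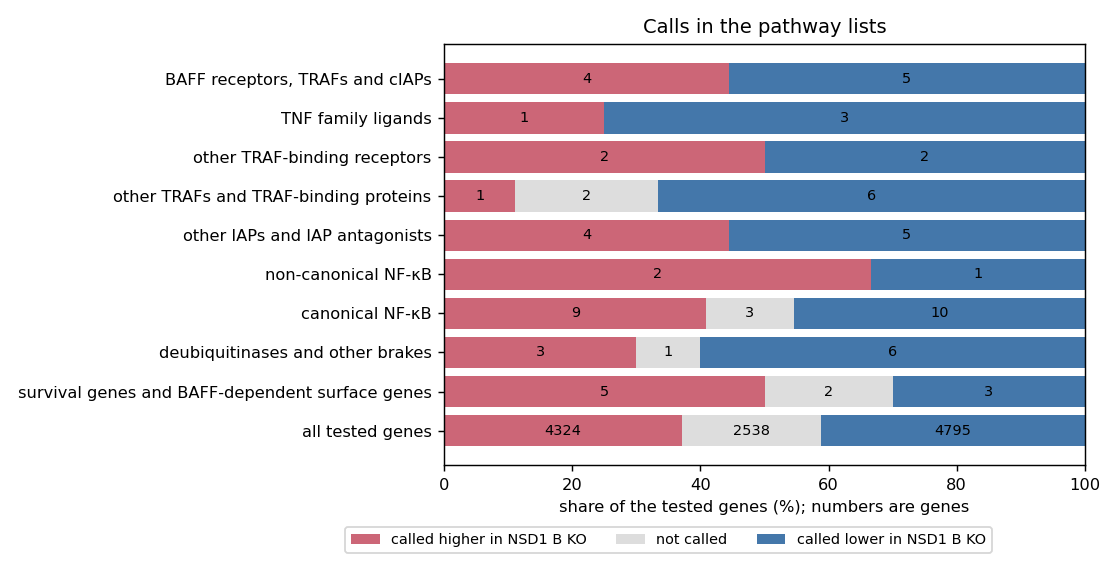
Share of the tested genes of each list, in percent, that were called higher in NSD1 B KO (red), not called (grey) or called lower (blue), with the number of genes written in each bar and all tested genes in the bottom bar. Each list holds genes called in both directions, with 9 higher and 10 lower of the 22 canonical NF-κB genes and 6 lower of the 9 tested other TRAFs and TRAF-binding proteins.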

How the data were processed

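RNA of sorted B220+ spleen cells was sequenced in 2 NSD1 B WT and 2 NSD1 B KO libraries. The authors deposited unnormalized whole-number counts per gene. Reads were mapped to mm10 with Bowtie2, and the FPKM values made with Cufflinks were not used here. No source used here gives the program that counted reads, its handling of strand or its annotation. Lines that name no gene were left out. They held 44.28% to 44.55% (no feature), 2.215% to 2.41% (ambiguous) and 11.2% to 13.24% (not unique) of each library.

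Counts were scaled by TMM in edgeR 4.0.16 (R 4.3.3), kept by filterByExpr (minimum count 10, total 15) and compared by edgeR's quasi-likelihood test, adjusted by Benjamini-Hochberg over 11657 genes. Genes were called at an adjusted p under 0.05 and a fold change above 1.2. The SE is the absolute log2 fold change over the square root of F. A gene at 0 in a genotype was set against 3 counts over that group (0.208 CPM in NSD1 B WT, 0.215 in NSD1 B KO). Exon lengths are from GENCODE M21, which held 99.5% of gene IDs. Replicates differed by more than sampling noise, with a chi-square per gene of 3.02 (NSD1 B WT) and 3.9 (NSD1 B KO). The script was tested on simulated data.

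The members and lists were chosen with earlier results of these data known. All members were named, with Nsd1, 7 genes beside the members, up to 2 higher and 2 lower genes of each list by log2 fold change whose mean log2 CPM reached 3, and the 3 genes most like Traf3. Single marker genes, Tnfaip3, genes that overlap members and Gm7019 were named after their values were seen. Alternatives were other scalings, DESeq2 1.42.0, limma-voom (limma 3.58.1), other filters and thresholds, a replicate block, a length and GC trend, immunoglobulin genes left out, exon length by longest transcript and each library left out. With 2 libraries against 2 an exact permutation test of a gene cannot reach 0.05 and was not made.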

Additional observations from a re-analysis of the deposited data

How the results depend on the processing

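All 122 fold changes recomputed for the 9 tested members under 14 alternatives kept their direction, and those made on all 4 libraries kept their call. Traf5, Traf6 and Map3k14, with 13 values each, were at 0 in both libraries of a genotype, so no alternative could turn their direction. Traf2, with 13 more, had only 2 counts in NSD1 B WT, so its direction was nearly fixed as well. With a filter of 1 CPM in all 4 libraries only 5 members were tested, of which 2 were higher and 3 lower, since that filter removes genes absent from a genotype. The replicate block left 4 higher and 5 lower, with Tnfrsf13b at -1.68 and Traf2 at 4.50 on the log2 scale, and changed no member's call. The deviations of same-numbered libraries correlated at 0.0774, which cannot show whether these libraries share more than a number. Over the alternatives the log2 fold change ran from -1.12 to -0.94 for Tnfrsf13c, -1.76 to -1.63 for Tnfrsf13b, 2.27 to 2.65 for Traf3, -1.21 to -0.86 for Birc2 and 0.82 to 0.94 for Birc3. It ran from 3.60 to 7.62 for Traf2, whose largest adjusted p was 0.0228 with limma-voom. With the longest transcript as length, 11 of 15 levels per kb moved by more than the SD. At this depth a gene with 0 counts is not shown to be silent.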
